A study of Homo sapiens with 6 samples.

Results

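The MAX network was examined as 10 genes chosen by symbol: the activators MYC, MYCN and MYCL, their partner MAX, the MAX-binding repressors MXD1, MXD3, MXD4, MXI1 and MNT, and MGA. All 10 were found among the 17039 genes of the expression table. Poly(A) RNA of MDA-MB-231 cells, a triple-negative human breast cancer line, and of 231-BR cells, a variant of that line selected for metastasis to the brain, was sequenced with 3 libraries each. The medium of the 231-BR cells held G418 at 200 μg/mL and that of the parental cells did not, so that the line and the medium cannot be told apart. The methods speak of parallel replicates without naming separate cultures, so the p-values measure the spread between these libraries, which may be technical.

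Expression was given by the authors as FPKM, a fragment count scaled by transcript length and by sequencing depth, with 2 decimals. Levels of different genes can be set side by side only as far as the transcript lengths used hold, which was not checked. Means below are given ± SD over n = 3 libraries per line, with the 231-BR value first and that of MDA-MB-231, the parental line, second. Read counts were not used here and the depth of each library is unknown. The summed FPKM ran from 465020 to 472007 in the 231-BR libraries and from 486937 to 496420 in the parental libraries. The cell line field of the labels counts 231, 232 and 233 over the replicates of both lines, whereas the titles name 1 line for each set of 3, and the titles were used for the groups. The epithelial markers differed between the lines in both directions. The keratin KRT8 lay between 173.92 and 179.95 FPKM in 231-BR and between 228.52 and 244.47 FPKM in parental libraries, and KRT18 between 269.09 and 276.06 and between 335.83 and 365.42 FPKM. The keratin KRT19 lay between 87.83 and 94.44 FPKM in 231-BR and between 2.61 and 3.26 FPKM in parental libraries, and EPCAM between 8.34 and 9.31 and between 4.44 and 5.49 FPKM. CDH1, the epithelial cadherin, was at most 0.03 FPKM in any library. The mesenchymal markers were not uniform. VIM, the mesenchymal filament protein, was at least 2273.12 FPKM, whereas CDH2, the mesenchymal cadherin, was at most 0.16 FPKM in any library. ZEB1 lay between 25.61 and 27.8 FPKM in 231-BR and between 22.7 and 24.03 FPKM in parental libraries. ZEB2 lay between 2.54 and 2.83 and between 1.22 and 1.32 FPKM, and FN1 between 20.09 and 20.54 and between 7.54 and 8.07 FPKM. The progesterone receptor gene PGR was at most 0.07 FPKM, ESR1 lay between 0.74 and 1.08 FPKM and ERBB2 between 4.75 and 10.23 FPKM. The leukocyte marker PTPRC was at most 0.04 FPKM, while CD68, a macrophage marker that other cells also express, lay between 61.93 and 84.18 FPKM, and the summed FPKM of 4 measured brain markers (GFAP, AQP4, RBFOX3 and AIF1) did not pass 0.24 in any library.

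MYC is a transcription factor of the basic helix-loop-helix leucine zipper class that binds DNA only as a dimer with MAX, and the dimer recognises the E-box, most often the letters CACGTG, in the promoters of genes for ribosome production, metabolism and cell division. The MXD proteins, MXI1 and MNT compete for MAX and for the same E-box, and recruit SIN3 and histone deacetylases, which lower transcription. MGA also pairs with MAX and is the scaffold of a Polycomb complex, PRC1.6, that silences germline genes. MYC is often amplified or overexpressed in breast cancer, the triple-negative type included.

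The E-box was looked up in the promoter windows of RefSeq (build GRCh38.p14), which run from 250 bases before to 50 bases after an annotated gene start. CACGTG, which reads the same on both strands, occurred in 2548 of 35116 windows, or 7.26%. For 9 of the 10 network genes at least 1 window was available, 14 windows in all, and 2 of them held the motif, 1 of MNT and 1 of MXD4. MYC itself had no window and could not be searched. Neither of the windows of MAX nor any of the 3 of MXI1 held these letters. The stretches below are from 2 repressor genes of the network and from genes known as MYC targets, and are shown because they hold the site that MYC-MAX and the MXD-MAX dimers share. Each runs 5′ to 3′ on the strand of the gene and ends before its start, with the E-box in capitals, and where a window held several sites the one nearest the start is given.
MNT, chr17:2401221-2401280, minus strand, E-box from 193 bases before the start: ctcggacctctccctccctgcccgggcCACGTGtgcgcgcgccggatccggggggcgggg
MXD4, chr4:2262315-2262359, minus strand, E-box from 238 bases before the start: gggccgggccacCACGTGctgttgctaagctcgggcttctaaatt
ODC1, chr2:10448013-10448068, minus strand, E-box from 29 bases before the start: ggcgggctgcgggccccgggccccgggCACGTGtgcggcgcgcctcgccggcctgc
LDHA, chr11:18394449-18394508, plus strand, E-box from 87 bases before the start: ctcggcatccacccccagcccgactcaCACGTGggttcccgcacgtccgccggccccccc
HK2, chr2:74834994-74835053, plus strand, E-box from 149 bases before the start: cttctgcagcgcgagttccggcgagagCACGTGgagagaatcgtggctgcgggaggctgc
PPAT, chr4:56435765-56435824, minus strand, E-box from 182 bases before the start: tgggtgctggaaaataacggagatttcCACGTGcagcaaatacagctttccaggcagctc
CDK4, chr12:57752379-57752438, minus strand, E-box from 101 bases before the start: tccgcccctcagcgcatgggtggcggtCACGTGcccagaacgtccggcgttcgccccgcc
EIF4E, chr4:98929173-98929232, minus strand, E-box from 72 bases before the start: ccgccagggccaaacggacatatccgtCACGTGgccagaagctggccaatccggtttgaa
HSPD1, chr2:197500330-197500389, minus strand, E-box from 88 bases before the start: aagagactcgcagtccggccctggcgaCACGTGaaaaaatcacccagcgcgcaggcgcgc
MCM7, chr7:100101398-100101449, minus strand, E-box from 25 bases before the start: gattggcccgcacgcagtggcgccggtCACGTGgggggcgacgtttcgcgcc

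To compare the lines, log2(FPKM + 0.1) of the 13465 genes with a mean of at least 0.1 FPKM was fitted with limma, and p-values were adjusted over all of them by the Benjamini-Hochberg method. Fold changes are those of 231-BR over parental cells, and the scale with its added 0.1 understates the change of low genes. Of the 10 network genes 9 could be tested, and 7 were higher and 1 lower in 231-BR cells with an adjusted p below 0.05. Of all genes tested 77.3% passed the same threshold, 44.4% with higher and 32.9% with lower expression, so that a share of 8 in 9 lies near the background. The ranges of the lines were apart for these 8 genes, as for 78.4% of all genes tested. The size of the differences separated the network genes further. With a log2 fold change over 1 in either direction and a mean of at least 1 FPKM in both lines as added criteria, MYC and MXI1 remained, and 6.45% of all genes tested did (4.68% higher and 1.77% lower). Over all genes tested, the log2 fold change had a median of 0.08.

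**Figure D1:**
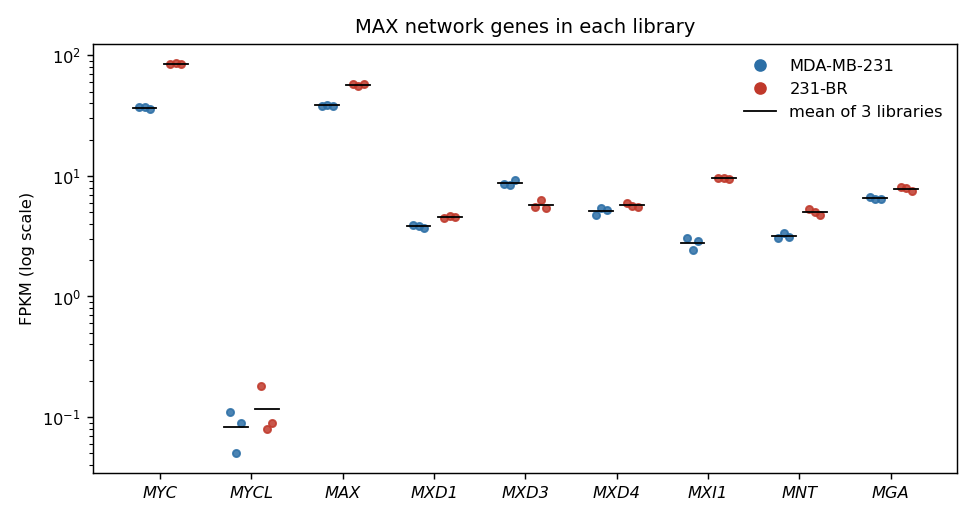
FPKM (vertical axis, log scale) of 9 network genes in each library, MDA-MB-231 in blue and 231-BR in red, with a bar at the mean of 3 libraries. MYC and MAX lie far above the other genes, the lines do not overlap except for MYCL, and MXD3 is the gene that is lower in 231-BR cells.

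MYC was the most expressed activator, and its FPKM was 2.32 times as high in 231-BR as in the parental cells. The 231-BR libraries had 83.96, 85.36 and 84.38 FPKM and the parental libraries 36.86, 36.85 and 35.71 FPKM. The ranges were narrow and lay far apart, with means of 84.6 ± 0.718 and 36.5 ± 0.661 FPKM. The log2 fold change was 1.21 with a standard error of 0.025 and a limma adjusted p of 8.3e-11, above that of 91.9% of the genes tested. By mean FPKM, MYC ranked 924th of the 17039 genes in 231-BR cells and 2287th in the parental cells. In bulk RNA, more cells with the transcript and more transcript per cell cannot be told apart.

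The other activators were close to absent. MYCN, the paralogue best known from neuroblastoma, was listed at 0 in 5 libraries and at 0.01 FPKM in 231-BR replicate 3, and was below the filter for the test. MYCL, first found in small cell lung cancer, had 0.18, 0.08 and 0.09 FPKM in the 231-BR libraries and 0.11, 0.05 and 0.09 FPKM in the parental libraries. The lines overlapped for MYCL, and the adjusted p of its log2 fold change of 0.23 was 0.42 (limma). MYC therefore made up nearly the whole of the activator signal in every library.

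MAX, the partner shared by all other proteins of the network, was 1.49 times as high in 231-BR cells. Its FPKM was 57.22, 56.05 and 57.91 in the 231-BR replicates against 38.16, 38.81 and 38.17 in the parental ones, without overlap. The log2 fold change was 0.57 with a standard error of 0.025 and a limma adjusted p of 1.6e-08. MYC thus differed more than MAX, and the order of both genes was turned: in each 231-BR library MYC exceeded MAX, and in each MDA-MB-231 library MAX exceeded MYC. In the parental libraries both genes lay close, so that their order there depends on the transcript lengths used. The ratio of MYC to MAX FPKM was 1.47, 1.52 and 1.46 in the 231-BR libraries, against 0.966, 0.949 and 0.936 in the parental ones. This ratio is taken within a library, so that a single scaling factor per library leaves it as it is, whereas quantile normalization, which acts by level, does not. Its log2 difference was 0.64 ± 0.024 (standard error), and the exact 2-sided permutation p was 0.1, the smallest that 3 against 3 libraries can give.

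Among the repressors MXI1 differed most, and it was 3.45 times as high in 231-BR cells. The 231-BR libraries had 9.67, 9.60 and 9.44 FPKM and the parental libraries 3.04, 2.41 and 2.88 FPKM. No MDA-MB-231 library came near the range of the 231-BR libraries. The log2 fold change of 1.76 with a standard error of 0.080 and a limma adjusted p of 1.9e-08 was the largest of the network and lay above that of 95.3% of the genes tested. In the parental cells MXI1 was the lowest of the 5 repressors, and in 231-BR cells it was the highest.

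MXD3, which is mostly found in dividing cells, went the other way. Its FPKM was 5.49, 6.31 and 5.45 in the 231-BR replicates against 8.59, 8.41 and 9.17 in the parental ones. Every 231-BR library was below every MDA-MB-231 library, and the log2 fold change was -0.60 with a standard error of 0.065 and a limma adjusted p of 1.4e-05. MXD3 was the highest repressor in the parental cells. The FPKM ratio of MXI1 to MXD3, a pair picked after the values were seen, lay between 1.52 and 1.76 in the 231-BR libraries and between 0.287 and 0.354 in the parental libraries.

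MNT, the broadly expressed repressor that opposes MYC in growing and resting cells alike, had 5.33, 5.0 and 4.77 FPKM in the 231-BR libraries and 3.07, 3.34 and 3.10 FPKM in the parental libraries. It was higher in every 231-BR library, with a log2 fold change of 0.65 with a standard error of 0.066 and a limma adjusted p of 7.4e-06. MXD1, which rises as cells differentiate, differed little, with 4.45, 4.64 and 4.52 FPKM against 3.90, 3.86 and 3.68 FPKM. Its log2 fold change was 0.24 with a standard error of 0.056 and a limma adjusted p of 0.0025. MXD4 had 6.01, 5.62 and 5.56 FPKM in the 231-BR libraries and 4.75, 5.41 and 5.19 FPKM in the parental libraries. The gap between the lines was small beside the spread within them, and the log2 fold change of 0.16 had an adjusted p of 0.038 (limma). Without 231-BR replicate 1, 2 or 3 or MDA-MB-231 replicate 1 or 3, the adjusted p of MXD4 lay between 0.0504 and 0.13 and the call was lost.

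MGA had 8.11, 7.95 and 7.45 FPKM in the 231-BR libraries and 6.72, 6.38 and 6.37 FPKM in the parental libraries. The libraries did not overlap, and the log2 fold change was 0.27 with a standard error of 0.051 and a limma adjusted p of 7.5e-04.

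The smaller differences depended on the scaling of the libraries. Rescaling the FPKM to an equal sum per library and median-of-ratios scaling moved the median of all genes tested by 0.07 and -0.08 on the log2 scale, and quantile normalization by -0.13. Relative to these shifts of the median the changes of MYC, MAX, MXI1, MNT and MXD3 were large, and their calls held under all 3. MYC stayed between 1.13 and 1.28, MXI1 between 1.55 and 1.84 and MXD3 between -0.76 and -0.53. Quantile normalization acts by level, so that the shift of the median does not hold for each gene. It left MYC at 1.21 and MAX at 0.55, whereas MNT fell from 0.65 to 0.40, by more than the median did. MXD1 was then 0.0080 and MGA 0.11 (adjusted p = 0.90 and 0.069 from limma), and MXD4 turned to -0.041. The direction of MXD4 is thus given only for the other scalings, and after median-of-ratios scaling its adjusted p was 0.27.

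**Figure D2:**
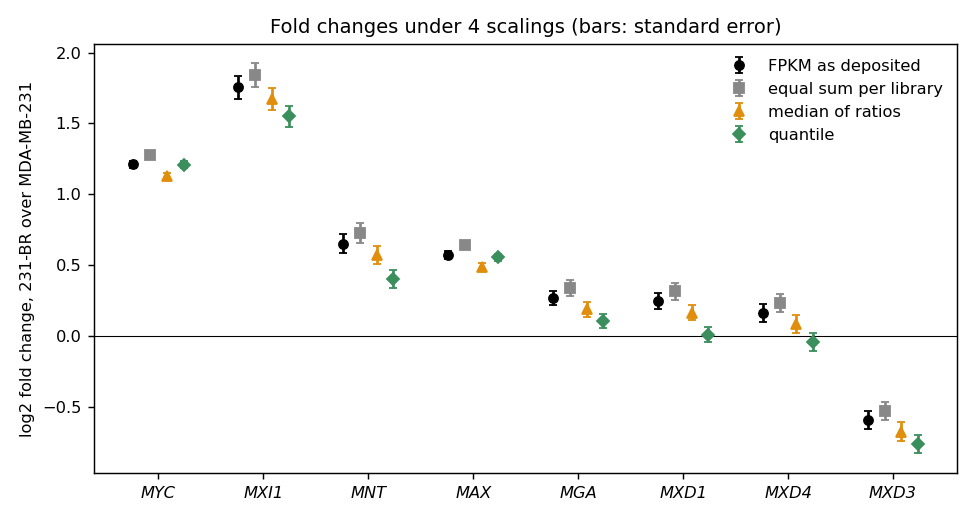
Log2 fold change of 8 network genes (vertical axis, 231-BR over MDA-MB-231) with its standard error under 4 scalings of the FPKM. MYC, MXI1, MNT and MAX stay above 0 and MXD3 below 0 under each, while MXD4 crosses 0 with quantile normalization.

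The repressors were also read together. The summed FPKM of MXD1, MXD3, MXD4, MXI1 and MNT was 30.95, 31.17 and 29.74 in the 231-BR libraries, against 23.35, 23.43 and 24.02 in the parental ones. The sum was higher in each 231-BR library, by 0.38 ± 0.025 (standard error) on the log2 scale. The exact 2-sided permutation p was 0.1, the smallest possible. Unlike a ratio within a library, the sum depends on scaling. The difference was 0.29 after median-of-ratios scaling and 0.44 when rescaled to an equal sum. The sum was not computed after quantile normalization, which lowered the log2 fold change of each of these repressors. Its makeup differed more than its size. MXI1 gave 31.3% ± 0.472 of the sum in 231-BR cells and 11.8% ± 1.38 in the parental cells. MXD3 gave 18.8% ± 1.31 and 37.0% ± 1.15. The shares of MXD1, MXD4 and MNT lay between 12.9% and 23.1% in every library.

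**Figure D3:**
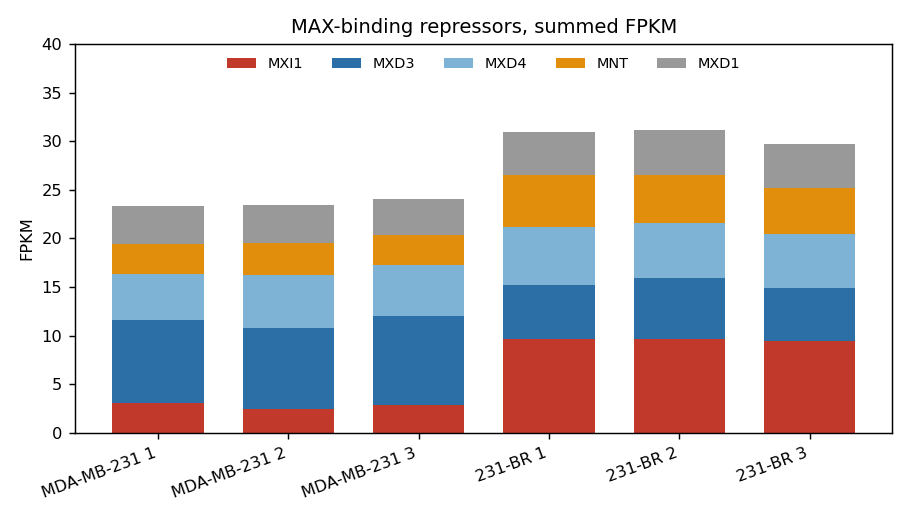
Summed FPKM of the 5 MAX-binding repressors in each library (vertical axis, FPKM from 0), with the part of each gene in its own colour. The sum lies between 23.35 and 24.02 in MDA-MB-231 and between 29.74 and 31.17 in 231-BR libraries, with a larger part of MXI1 and a smaller part of MXD3 in the latter.

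Set against the repressors, the activators were also higher in 231-BR cells, though by less than MYC alone with its log2 fold change of 1.21. The ratio of the summed MYC, MYCN and MYCL to the summed repressors was 2.72, 2.74 and 2.84 in the 231-BR libraries, against 1.58, 1.57 and 1.49 in the parental ones. The libraries did not overlap and the log2 difference was 0.84 ± 0.034 (standard error; exact 2-sided permutation p = 0.1, the smallest possible). As with MYC and MAX, a single factor per library leaves this ratio as it is, and quantile normalization does not. All partners of MAX together, MGA included, reached 2.10 to 2.22 times the FPKM of MAX in the 231-BR libraries and 1.72 to 1.76 times in the parental libraries. These ratios are of RNA, and the amounts of the proteins were not measured here.

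Within 231-BR cells the order of mean FPKM was MYC, MAX, MXI1, MGA, MXD3, MXD4, MNT, MXD1, MYCL and MYCN. The values of MXD3 and MXD4 overlapped (means 5.75 and 5.73 FPKM), and the other neighbours in this order down to MYCL did not. Within the parental cells the order was MAX, MYC, MXD3, MGA, MXD4, MXD1, MNT, MXI1, MYCL and MYCN. No neighbours overlapped there down to MYCL, though MNT and MXI1 came close, with a lowest value of 3.07 FPKM for MNT and a highest of 3.04 FPKM for MXI1.

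The genes around MYC on chromosome 8 were higher in 231-BR cells as well. Among genes with a mean of at least 1 FPKM, the 40 nearest in the RefSeq gene order, 20 on either side, all had a log2 fold change above 0, with a median of 0.79. MYC exceeded that median, and 10 of the 40 neighbours exceeded MYC. The nearest tested gene before MYC was FAM84B, with 7.81, 7.93 and 7.21 FPKM in the 231-BR libraries and 1.28, 1.41 and 1.30 FPKM in the parental libraries. The nearest after it was GSDMC, a gasdermin, with 5.55, 5.97 and 5.76 FPKM against 0.12, 0.26 and 0.11 FPKM. DNA copy number was not analysed here.

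**Figure D4:**
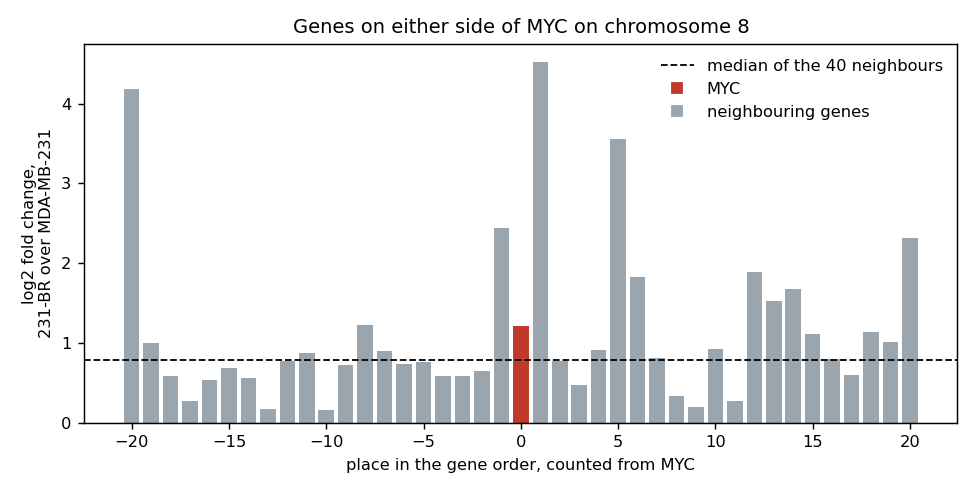
Log2 fold change (vertical axis, 231-BR over MDA-MB-231) of MYC in red and of its 40 neighbours in grey, in gene order along chromosome 8 (horizontal axis, places from MYC). All 40 neighbours lie above 0, and the broken line marks their median of 0.79.

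The other network genes stood apart from their surroundings to different degrees. MXI1 on chromosome 10 lay in a stretch with a neighbour median of 0.34, and 1 of its 40 neighbours had a larger log2 fold change. For MAX on chromosome 14 the neighbour median was also 0.34, and 11 of 40 neighbours were above MAX. MNT on chromosome 17 had neighbours with a median of -0.08, and MXD3 on chromosome 5 neighbours with a median of -0.22. The neighbours of MGA on chromosome 15 had a median of -0.21, with 9 of 40 above 0, and those of MXD4 on chromosome 4 also -0.21, with 11 of 40 above 0. Those of MXD1 on chromosome 2 had a median of -0.02. Neighbouring genes are not independent of each other, and no test was made.

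The profile of MYC over the 6 libraries was compared with those of 11123 other genes with a mean of at least 1 FPKM, by the root mean square difference of centred log2 values. METTL9, PLEKHG4, HAUS8, PRKCA and POGLUT1 were the nearest, with differences of 0.015 to 0.023. None of them lies on chromosome 8. For MXI1 the nearest were TRAPPC9, PABPC4L, ENDOD1, PAG1 and HOXB9, with differences of 0.054 to 0.073. Of these, TRAPPC9 and PAG1 lie on chromosome 8, and TRAPPC9 is among the 40 neighbours of MYC. With 2 lines, likeness mostly reflects a fold change of the same size.

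MYC acts on transcription through cofactors, of which 15 were listed. Of these, 3 were higher and 7 lower in 231-BR cells, with a median log2 fold change of -0.08 against 0.08 for all genes tested. Among all genes tested 44.4% were higher and 32.9% lower. The acetyltransferase gene KAT2A was higher, with a log2 fold change of 0.72, and the acetyltransferase gene KAT5 and its complex partner EP400 were lower, with -0.44 and -0.38. TRRAP, the scaffold that MYC binds directly and a gene picked after its values were seen, had a log2 fold change of -0.04 (adjusted p = 0.46 from limma). After median-of-ratios scaling 2 cofactors were higher and 11 lower, beside 5256 and 5181 of all 13465 genes tested.

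Of 15 genes that control the stability of the MYC protein, 10 were higher and 3 lower in 231-BR cells, with a median of 0.24. The shares over all genes tested were 44.4% and 32.9%. GSK3B, the kinase that marks MYC for degradation, had 12.8 ± 0.180 against 4.99 ± 0.122 FPKM, or a log2 fold change of 1.35, with a neighbour median of 0.58 on chromosome 3. FBXO32, a ubiquitin ligase subunit whose log2 fold change was 0.87, is itself one of the 40 neighbours of MYC. FBXW7, the ligase subunit that reads the GSK3B mark and is named here after its values were seen, had 6.77, 6.09 and 6.15 FPKM against 4.51, 4.52 and 4.98 FPKM, or a log2 fold change of 0.43 (adjusted p = 1.3e-04 from limma). PLK1 and AURKA, mitotic kinases that stabilise MYC proteins, were lower by small amounts, with log2 fold changes of -0.15 and -0.13. After median-of-ratios scaling 8 genes of this list were higher and 4 lower, beside 5256 and 5181 of all 13465 genes tested.

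The corepressors recruited by the MXD proteins, 12 genes, were split, with 6 higher and 4 lower and a median of 0.14. Over all genes tested the shares were 44.4% higher and 32.9% lower. Rescaled to an equal sum, 8 corepressors were higher and 3 lower, beside 6531 and 3833 of all 13465 genes tested. SIN3B, a scaffold of the histone deacetylase complex, had 25.8 ± 1.04 FPKM in 231-BR and 8.49 ± 0.070 FPKM in the parental cells. Its log2 fold change was 1.59, and the neighbour median on chromosome 19 was 1.01. SUDS3, a subunit of the same complex, had a log2 fold change of 0.64. RBBP7, a histone-binding subunit, was lower, with a log2 fold change of -0.41.

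Of the 13 other subunits of the MGA complex PRC1.6 that were listed, 5 were higher and 3 lower, with a median of 0.05. The split was 4 and 5 after median-of-ratios scaling, beside 5256 and 5181 of all 13465 genes tested. It was 8 and 2 when rescaled to an equal sum, beside 6531 and 3833. With the FPKM as given, 44.4% of all genes tested were higher and 32.9% lower. TFDP2, a partner of E2F6, was higher with a log2 fold change of 1.15, and so was RNF2, a catalytic ubiquitin ligase of Polycomb complexes, with 1.04. L3MBTL2, a subunit particular to PRC1.6, was lower with -0.49, and WDR5 with -0.19. Germline genes silenced by this complex were barely expressed. Of 15 listed, 11 were in the table and 5 could be tested. MAEL, SYCP3, MEIOC and SYCE2, named after their values were seen, were called higher in 231-BR cells by limma, although the libraries of the lines overlapped for SYCP3 and SYCE2, and no value of these 4 exceeded 0.83 FPKM in any library. The count of 4 fell to 1 without 231-BR replicate 3, to 2 without MDA-MB-231 replicate 2 or 3 or after median-of-ratios scaling, and to 0 after quantile normalization.

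In the parallel branch, where MLX takes the place of MAX and pairs with glucose-sensing factors, MLX did not pass the test, with 50.3 ± 0.695 and 50.7 ± 1.16 FPKM. MLXIP, also called MondoA, had a log2 fold change of 0.30, and MLXIPL, or ChREBP, was at most 0.08 FPKM. The MondoA targets TXNIP and ARRDC4, arrestin-like proteins that limit glucose uptake, were higher. TXNIP had 58.0 ± 0.779 against 31.2 ± 0.824 FPKM and ARRDC4 4.24 ± 0.197 against 0.370 ± 0.087 FPKM. Their log2 fold changes were 0.89 and 3.22 (adjusted p = 1.7e-09 and 8.1e-09 from limma). Of the 5 genes of this branch 4 were tested and 3 were higher, beside 44.4% of all genes tested. After median-of-ratios scaling MLX counted as lower, with -0.09.

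Other factors that read E-boxes, 15 genes of which 14 were tested, were higher in 4 cases and lower in 8, with a median of -0.15. Over all genes tested 44.4% were higher and 32.9% lower. After quantile normalization 3 of these factors were higher and 10 lower, beside 4844 and 5715 of all 13465 genes tested. MITF, the melanocyte factor, had 17.5 ± 0.943 against 2.65 ± 0.106 FPKM, and NPAS2, a clock factor, 58.4 ± 0.398 against 23.0 ± 1.06 FPKM. Their log2 fold changes were 2.68 and 1.34. BHLHE40, a repressor of clock genes, had 2.26 ± 0.149 against 10.3 ± 0.475 FPKM, and HIF1A, the hypoxia factor, 48.2 ± 0.848 against 92.9 ± 2.48 FPKM. Their log2 fold changes were -2.15 and -0.94.

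The known target genes of MYC were split in direction. Of 68 targets listed for ribosome production, metabolism, and cell cycle and growth, 24 were higher and 32 lower in 231-BR cells, with a median log2 fold change of -0.06. Of all genes tested 44.4% were higher and 32.9% lower, with a median of 0.08, and of the 6309 genes with a mean of at least 10 FPKM 2657 were higher and 2659 lower, with a median of -0.0021. The split of the targets moved with the scaling, and so did that of all 13465 genes tested. After median-of-ratios scaling 19 targets were higher and 39 lower, beside 5256 and 5181 of all genes tested. After quantile normalization the targets were split 29 and 30, beside 4844 and 5715. Rescaled to an equal sum, they were split 31 and 29, beside 6531 and 3833. None of the 68 had a log2 fold change over 1, and 2 were below -1, both of them low genes. CCND2, named after its values were seen, had means of 0.210 and 0.803 FPKM, and ID2 had 0.477 and 2.26 FPKM. With a mean of at least 1 FPKM in both lines as added criterion none of the 68 remained, and 6.45% of all genes tested did.

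Of 24 ribosome genes 8 were higher and 12 lower (median -0.09), beside 44.4% and 32.9% of all genes tested. After median-of-ratios scaling 6 were higher and 15 lower, beside 5256 and 5181 of all 13465 genes tested. NCL, the nucleolar protein often used as a readout of MYC and named here after its values were seen, had 553.61, 552.84 and 560.51 FPKM in the 231-BR libraries and 560.51, 554.08 and 562.15 FPKM in the parental libraries, and the lines overlapped. NPM1, also picked after the fact, had a log2 fold change of 0.00 (adjusted p = 0.89 from limma). After median-of-ratios scaling NCL and NPM1 were called lower, with log2 fold changes of -0.09 and -0.08. After quantile normalization both were called higher, with 0.10 and 0.17. With the FPKM as given, PPAN, a factor of the large subunit, and BOP1, a nucleolar processing factor, were higher with 0.83 and 0.59. Both lie in raised surroundings, with neighbour medians of 0.76 on chromosome 19 and 0.68 on chromosome 8. TCOF1, which serves ribosomal RNA transcription, and WDR43, of the small subunit processome, were lower with -0.63 and -0.57.

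Of 24 metabolic genes 12 were higher and 7 lower, with a median of 0.06. Of all genes tested 44.4% were higher and 32.9% lower. The split of the metabolic genes was 10 and 9 after median-of-ratios scaling, beside 5256 and 5181 of all 13465 genes tested. It was 15 and 5 when rescaled to an equal sum, beside 6531 and 3833. PPAT, the entry enzyme of purine synthesis, had 20.3 ± 0.696 against 13.2 ± 1.01 FPKM, or a log2 fold change of 0.62, and HK2, a hexokinase, had 0.56. ODC1, the polyamine enzyme whose E-box is shown above, was picked after its values were seen. It had 352.29, 350.05 and 349.25 FPKM in the 231-BR libraries and 249.54, 260.52 and 260.73 FPKM in the parental libraries, or a log2 fold change of 0.45 (adjusted p = 5.0e-08 from limma). LDHA, lactate dehydrogenase, was lower with 518 ± 3.92 against 776 ± 7.39 FPKM, or a log2 fold change of -0.58, and so was SHMT2, a mitochondrial enzyme of one-carbon metabolism, with -0.51.

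Of 20 cell cycle and growth genes 4 were higher and 13 lower, with a median of -0.29, beside 44.4% and 32.9% of all genes tested. The split was 3 and 15 after median-of-ratios scaling, beside 5256 and 5181 of all 13465 genes tested. It was 6 and 13 after quantile normalization, beside 4844 and 5715, and 5 and 13 when rescaled to an equal sum, beside 6531 and 3833. TFAP4, a transcription factor induced by MYC, was higher with 17.6 ± 0.390 against 10.6 ± 0.226 FPKM, or a log2 fold change of 0.73, and EIF4E, which binds the messenger RNA cap, was higher with 0.36. ID2, an inhibitor of helix-loop-helix factors, was lower with 0.477 ± 0.095 against 2.26 ± 0.205 FPKM, or a log2 fold change of -2.05, and CDCA7 was lower with -0.86. CDK4, HSPD1 and MCM7, whose E-boxes are shown above and which were picked after their values were seen, had log2 fold changes of -0.27, -0.59 and -0.52.

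The E-box, which many of these targets are known for, was found in 8 of 18 ribosome genes with a promoter window, 10 of 21 metabolic genes and 7 of 16 cell cycle and growth genes, against 12.3% of the 10920 tested genes that had one. Of the 25 targets with the motif 9 were higher and 13 lower in 231-BR cells (median -0.11), and of the 30 targets without it 12 and 12 (median -0.01). Over all tested genes with a window, 45.0% of the 1343 with CACGTG were higher and 33.3% lower, and 44.0% and 34.0% of the 9577 without. A match of these letters does not show that a factor was bound.

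Genes that MYC is known to repress, 12 in the list and 10 tested, were higher in 4 cases and lower in 4. Among all genes tested 44.4% were higher and 32.9% lower. CDKN1A, the p21 inhibitor of cyclin-dependent kinases, had 9.95 ± 0.728 against 37.9 ± 0.536 FPKM, or a log2 fold change of -1.92, and the growth arrest gene GADD45A had -0.92. CDKN1C, which encodes the related inhibitor p57, was higher with 6.55 ± 0.639 against 1.18 ± 0.225 FPKM, or a log2 fold change of 2.38. HBP1, a repressor of cell cycle genes, was higher with 0.57. None of the 8 genes of this list with a promoter window had the E-box in it.

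**Figure D5:**
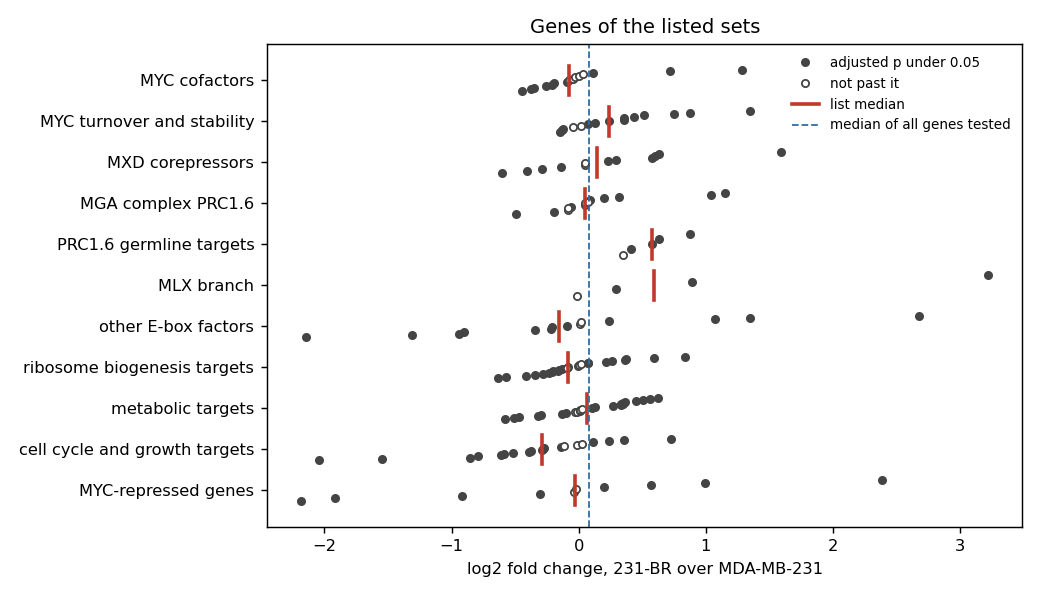
Log2 fold change (horizontal axis, 231-BR over MDA-MB-231) of each tested gene of the 11 lists, filled where the adjusted p was under 0.05, with the list median in red and the median of all genes tested, 0.08, as a broken line. The medians of the 3 target lists lie between -0.29 and 0.06, and ARRDC4 of the MLX branch, at 3.22, lies farthest to the right.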

How the data were processed

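RNA of 6 libraries, 3 per line, was read on a BGISEQ-500. According to the methods and the submitters' processing notes, the authors filtered the reads, aligned them with HISAT2 2.0.4 (build GRCh38.p12) and Bowtie2 2.2.5, and deposited FPKM per gene with 2 decimals; the program that computed FPKM is not given in the sources used here. The files of single samples held the same values as the table. Of 1238 low genes (no library at 0 or over 0.3 FPKM), 166 were equal in 231-BR replicates 1 and 2. With 2 decimals, this count cannot show whether low values move in steps of single fragments. The depth therefore stays unknown.

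Libraries were grouped by title. log2(FPKM + 0.1) was fitted with limma 3.58.1 in R 4.3.3 (eBayes with trend) on genes with a mean of at least 0.1 FPKM. The study used a count test, which FPKM do not allow. Single ratios and sums were compared with an exact permutation test (scipy 1.17.1). The fit was tested on simulated data. Gene order came from RefSeq (GRCh38.p14), where 16798 identifiers were found. Of 170 list entries in 11 lists, 166 were matched. From each list, the 2 genes called with the largest rise and the 2 with the largest fall and a mean of at least 1 FPKM in either line were named, with every gene of the MLX branch, the nearest tested gene on either side of MYC, and the 5 genes nearest in profile to MYC and to MXI1. Of the genes this rule names, 2 are not reported here. The members and lists were chosen with earlier results of these data known. The alternatives were other pseudocounts, filters and scalings, no trend, a replicate block and each library left out.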

Additional observations from a re-analysis of the deposited data

How the results depend on the processing

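Of the network genes, 8 were called under the reported setting, 5 after quantile normalization (4 higher, 1 lower), 2 with the added criteria of fold change and FPKM, and 7 to 8 with 1 library left out. MXD4 was reversed after quantile normalization, to -0.041, and its call was lost in 8 other settings. MXD1 and MGA lost theirs after quantile normalization alone. The cause was not tested. The calls of MYC, MAX, MXI1, MNT and MXD3 held under all 15 alternatives of the fit. For the germline genes of PRC1.6, 4 were called as reported, 2 after median-of-ratios scaling, 0 after quantile normalization, 0 with a filter at a mean of 1 FPKM, where none could be tested, and 1 to 3 with 1 library left out. For each other list, the number of genes called in either direction together stayed within 1.5 times. The numbers per direction moved further in places, such as 7 to 11 lower cofactors after median-of-ratios scaling. The lower genes among all tested went from 4433 to 5181 with that scaling. With 1 library left out, the log2 difference of the MYC to MAX ratio was 0.62 to 0.65 and that of the activators to the repressors 0.81 to 0.85. That of the repressor sum was 0.36 to 0.40 with 1 library left out. It was 0.29 after median-of-ratios scaling and 0.44 when rescaled to an equal sum, and was not computed after quantile normalization.

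The replicate numbers did not pair the libraries: the correlation of the deviations of same-numbered libraries over 11124 genes was 0.087, -0.040 and -0.106. With the replicate number as a block 7 network genes were called, without MXD4 (adjusted p = 0.055 from limma), and 122 list genes against 123. Over all genes 57.4% of the calls were higher in 231-BR cells, and after quantile normalization 45.9%. With the depth unknown, no detection limit can be given for genes at or near 0, such as MYCN and MYCL.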
